A study of Mus musculus with 8 samples.

Results

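Expression of 10 genes of cellular iron storage, uptake and sensing (Fth1, Ftl1, Tfrc, Slc40a1, Slc11a2, Ireb2, Aco1, Ncoa4, Steap3 and Hamp) was examined in AML12 cells with and without exposure to Opti-ELF-WMF. The genes were taken by symbol, without a filter on their values, from the 55401 genes of the RNA-seq tables, and all 10 were found once. Earlier results of these data were known when they were chosen. AML12 cells are immortal mouse hepatocytes established from animals transgenic for human transforming growth factor alpha. RNA came from 4 control samples and from 4 samples cultured for 1 h under a pulsed magnetic field, referred to as Opti-ELF-WMF. The field had a peak of 10 µT (100 mG), a pulse width of 4 ms and pulse frequencies that increased from 1 to 8 Hz. Control cells were prepared at the same time and from the same batch as exposed cells. The samples are called dishes here, but whether the 4 of a condition were separate dishes or separate cultures is not stated. The medium of both conditions was supplemented with serum, dexamethasone and insulin-transferrin-sodium selenite, so that transferrin was supplied from outside. The control dishes stood in another incubator of the same model with the stimulator turned off, and an effect of the field cannot be told apart from one of the incubator.

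Iron enters most cells as transferrin bound to the transferrin receptor, is reduced in the endosome and is released into the cytosol, where it is used, exported or stored inside the ferritin shell. Both iron regulatory proteins bind a short RNA hairpin, the iron-responsive element, when iron is scarce. Binding near the 5′ end of an mRNA blocks its translation, and binding in the 3′ UTR shields the mRNA from decay. Liver cells also set body iron, because hepatocytes secrete hepcidin, the hormone that removes the iron exporter ferroportin from cell surfaces.

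Hairpins of this kind were located in the transcripts of GENCODE M21 (GRCm38), since their place, in the 5′ UTR or in the 3′ UTR, decides which step of expression iron is known to act on. The search was run on the transcript strand within annotated UTRs, for the loop CAGTGN between 2 arms of 5 bases that pair with each other (G-U pairs allowed) and a C directly before the first arm. It was met in the 5′ UTR of 0.142% and in the 3′ UTR of 0.589% of 21901 genes with a coding transcript. Among the 10 genes, Fth1, Ftl1 and Slc40a1 had 1 match each in the 5′ UTR and Tfrc had 4 in the 3′ UTR. In the annotated transcript read first, the loop began at base 670 for Fth1, 90 for Ftl1 and 102 for Slc40a1. The Fth1 match lay in 4 annotated transcripts, and its distance from their 5′ ends was not compared. Each match is shown with its flanks, 5′ to 3′ and with T in place of U, with the loop in capitals:
Fth1, 5′ UTR, chr19:9982732-9982760, plus strand: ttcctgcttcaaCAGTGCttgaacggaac
Ftl1, 5′ UTR, chr7:45459779-45459807, minus strand: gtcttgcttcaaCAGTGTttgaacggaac
Slc40a1, 5′ UTR, chr1:45925465-45925493, minus strand: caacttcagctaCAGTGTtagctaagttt
Tfrc, 3′ UTR, chr16:32631219-32631247, plus strand: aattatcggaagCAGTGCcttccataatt
Tfrc, 3′ UTR, chr16:32631598-32631626, plus strand: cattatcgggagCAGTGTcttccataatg
Tfrc, 3′ UTR, chr16:32631663-32631691, plus strand: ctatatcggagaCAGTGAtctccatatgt
Tfrc, 3′ UTR, chr16:32631710-32631738, plus strand: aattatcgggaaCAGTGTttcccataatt

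No match was found in Slc11a2, Ireb2, Aco1, Ncoa4, Steap3 or Hamp, which says only that these letters are not in their annotated UTRs. The ferritin transcripts share the same 5 bases on either side of the loop, and all 4 Tfrc matches differ from them in the stem. A match describes the sequence, and binding was not measured here.

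The depth of the libraries is unknown, because TPM, a measure of transcript abundance that corrects for gene length, is scaled to a fixed total in every dish. TPM was above 0 for 19386 to 20114 genes per dish. The share of TPM from the mitochondrial genome was 8.94% ± 0.34 in control and 7.04% ± 0.76 in exposed cells (SD, n = 4 each), which leaves a larger share of the fixed total to all other genes after exposure. Of 12 hepatocyte markers, 10 were at a TPM of at least 1 in every dish, with a summed TPM of 5635 to 5893 in control and 5979 to 6202 in exposed dishes. Most of this sum was Krt8 and Krt18, while Alb was at 52.6 to 58.2 in control and 46.1 to 53.0 in exposed dishes and Cebpa at 8.24 to 11.1 and 7.35 to 8.73. Ahsg and Fgb, markers of the mature hepatocyte, stayed below 1 in every dish. Among markers of other cells, 1 of 8 macrophage genes (Cd68) and 0 of 7 endothelial genes reached 1 in every dish, and 4 of 8 and 1 of 7 were at 0 in all of them. Of 8 stellate cell and fibroblast markers 1 (Vim) reached 1 in every dish, with a summed TPM of 1306 to 1403 in control and 1382 to 1510 in exposed dishes, while Lrat was at 0 in all of them. Of 6 cholangiocyte markers 4 did, among them Krt19 and Spp1, with sums of 1583 to 1684 and 1607 to 1724. The part of these markers in the values below was not tested.

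Levels were compared within the dishes on the TPM scale, which accounts for gene length. The light and heavy ferritin chains stood far above the other iron genes. Ftl1, the light chain that supports the mineral core, ranked 8th and Fth1, the heavy chain that carries the ferroxidase site, ranked 12th by mean TPM of all 55401 genes. Together they made up 1.251% ± 0.03 of TPM in control and 1.303% ± 0.03 in exposed cells (SD, n = 4 each), and the conditions overlapped. The next gene in order was Ncoa4, with a TPM 47.3 to 53.9 times lower than that of Fth1 in the same dish. It was followed by Tfrc, Aco1, Slc40a1, Ireb2, Steap3 and Slc11a2, which lay between 27.0 and 99.9. The ranges over the 8 dishes overlapped for Aco1 and Slc40a1, for Ireb2 and Steap3, and for Steap3 and Slc11a2, and in this sense their order is not separated across dishes. Within a dish Aco1 was above Slc40a1 in 8 of 8 dishes, with a ratio of 1.01 to 1.12, and Steap3 above Slc11a2 in 8 of 8, with a ratio of 1.06 to 1.23. Ireb2 was above Steap3 in 7 of 8 dishes, with a ratio of 0.996 to 1.16, and the difference of this pair was not tested. Hamp was listed at a TPM of 0 in all 8 dishes.

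**Figure D1:**
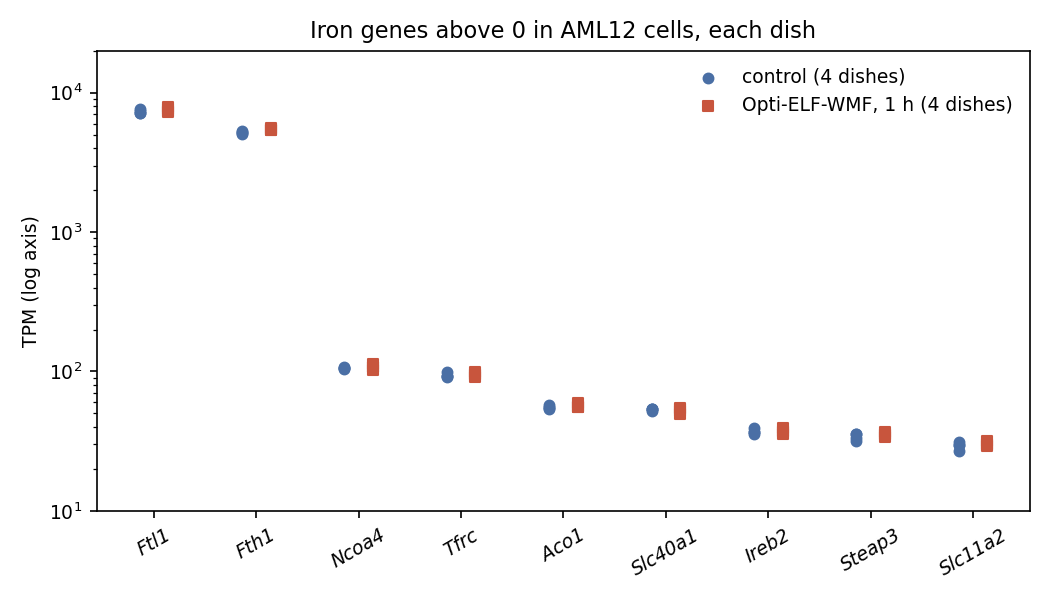
TPM of the 9 iron genes above 0 on a logarithmic axis, with 1 point for each control dish (circles) and each exposed dish (squares). Both ferritin chains lie between 5041 and 7873, and the 7 other genes between 27.0 and 114.

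Fold changes were computed as log2(TPM + 1) in exposed minus control dishes and tested with limma across 12122 genes, those that reached a TPM of 1 in 4 or more dishes. For genes with low TPM the added 1 makes a fold change appear smaller than it is. Of the 10 genes 9 passed this filter, Hamp did not, and at a threshold of 0.05 on limma's p-value after Benjamini-Hochberg adjustment 0 of the 9 were called. The same threshold called 0 of all 12122 genes, or 0.0%, where an unadjusted p-value under 0.05 was found for 1894, or 15.6%. An unadjusted p-value under 0.05 was found for 1 of the 9 iron genes, Fth1, with higher TPM after exposure, against 12.0% of all tested genes in that direction, and for 0 of the 9 with lower TPM, against 3.65%. The conditions did not overlap for 1 of the 9, again Fth1 with higher TPM, against 8.01% of all tested genes, and for 0 with lower TPM, against 1.86% (9.87% in either direction). Each count with higher TPM is 1 gene, or 11.1% of the 9, and lies near the background. The median log2 fold change of the 9 genes was 0.034, against 0.026 for all tested genes.

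Fth1 (ENSMUSG00000024661, chr19:9980598-9985098 on GRCm38) had a TPM of 5236, 5306, 5108 and 5041 in control dishes and of 5514, 5558, 5422 and 5417 in exposed dishes. Every exposed dish was above every control dish, although the lowest exposed and the highest control dish differed by less than the SD of the controls. The means were 5173 ± 120 (SD, n = 4) and 5478 ± 69.6 (SD, n = 4), a log2 fold change of 0.083 with a standard error of 0.025. By limma the unadjusted p-value was 0.00741 and the adjusted p-value 0.166 (rank 539 of all tested genes), and the exact two-sided permutation test gave p = 0.0286, the smallest that 4 dishes against 4 allow. When TPM was scaled by the median of ratios between dishes, the log2 fold change was 0.052 (unadjusted p = 0.108, limma) and the conditions overlapped by a margin of 5376 in the highest control dish to 5368 in the lowest exposed dish. With upper-quartile scaling and without the filter on low values the unadjusted limma p-values were 0.0744 and 0.0669. The lower mitochondrial share of TPM after exposure moved with this difference, and with mitochondrial genes left out of the total the log2 fold change was 0.053 (unadjusted p = 0.0209, limma). Under this last scaling the highest control dish was at 5811 and the lowest exposed dish at 5857. Under upper-quartile scaling they were at 5327 and 5344.5.

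**Figure D2:**
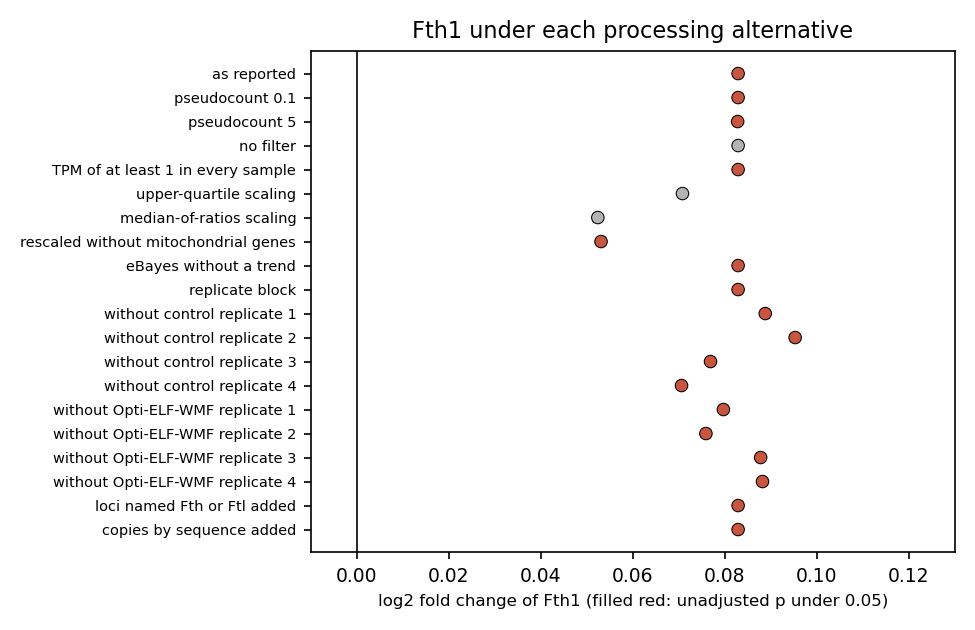
Log2 fold change of Fth1 (x axis, exposed over control) under each processing alternative (y axis), with red points where limma's unadjusted p-value was under 0.05 and grey points elsewhere. The values run from 0.052 to 0.095 and are all above 0.

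Ftl1 (ENSMUSG00000050708, chr7:45457944-45459884) had a TPM of 7156, 7596, 7166 and 7427 in control dishes and of 7873, 7702, 7352 and 7289 in exposed dishes. The conditions overlapped, with 2 exposed dishes above and 2 within the control range. The log2 fold change was 0.042 (standard error 0.033, limma adjusted p = 0.596), and its 95% interval of -0.033 to 0.12 holds both 0 and the value of Fth1. It was 0.022 without Opti-ELF-WMF replicate 1, the dish with the highest value. The ratio of Ftl1 to Fth1 within a dish, which no scaling of the dish can move, was 1.42 ± 0.05 in control and 1.38 ± 0.04 in exposed cells (SD, n = 4 each), with overlap. Ferritin genes have many processed copies, and reads could be shared with them. The loci found by name or by sequence summed to at most 0.94 TPM for Fth1 and to 48.35 to 71.5 TPM for Ftl1, which is at most 0.997% of the parent gene. For Ftl1 nearly all of it came from Ftl1-ps1, whose transcript was 99.6% identical to Ftl1 and which had a TPM of 44.5 to 66.2. Ftmt, which encodes mitochondrial ferritin, was at 0 in every dish.

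Ncoa4 (ENSMUSG00000056234, chr14:32159865-32179855), the receptor that carries ferritin to the autophagosome for iron release, had a TPM of 105, 104, 108 and 106 in control dishes and of 102, 114, 107 and 108 in exposed dishes. Both the lowest and the highest value belonged to exposed dishes. The log2 fold change of 0.028 (standard error 0.034, limma adjusted p = 0.747) was close to the median of all tested genes and lay just below 0 (-0.0021 and -0.0014) with median-of-ratios scaling or with mitochondrial genes left out of the total. Without Opti-ELF-WMF replicate 2, the dish at 114, it was 0.0016, and without Opti-ELF-WMF replicate 1 it was 0.054.

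Tfrc (ENSMUSG00000022797, chr16:32608920-32632794), the transferrin receptor, had a TPM of 91.4, 92.6, 98.4 and 93.1 in control dishes and of 95.1, 96.1, 99.9 and 92.0 in exposed dishes. The conditions overlapped over nearly their whole range. The log2 fold change was 0.029 (standard error 0.034, limma adjusted p = 0.743), with a 95% interval of -0.048 to 0.10, and it was -0.0016 and -0.00094 under the scalings that turned Ncoa4. It was 0.0081 without Opti-ELF-WMF replicate 3 and 0.051 without control replicate 3, the highest dish of each condition. Tfrc carries the 3′ hairpins shown above, and whether they were bound was not measured. The ratio of Fth1 to Tfrc within a dish was 55.2 ± 2.6 (SD, n = 4) in control and 57.2 ± 2.0 (SD, n = 4) in exposed dishes, with overlap.

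**Figure D3:**
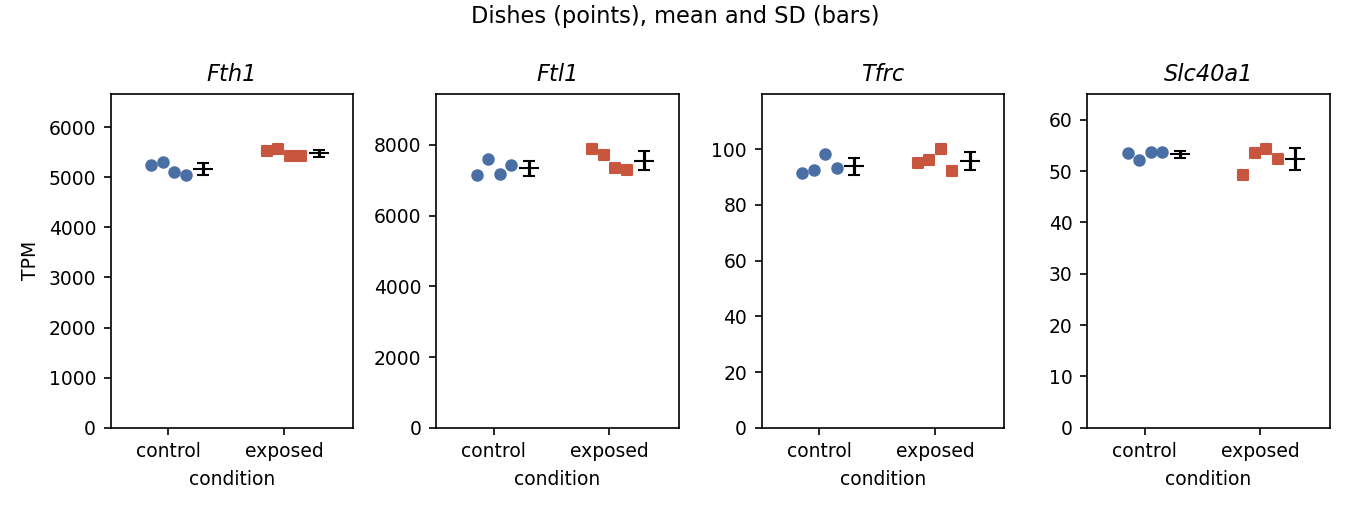
TPM (y axis, from 0) of Fth1, Ftl1, Tfrc and Slc40a1 in each control and exposed dish (points), with the mean and SD of 4 dishes (bars). For Fth1 the exposed dishes, from 5417 to 5558, lie above the control dishes, from 5041 to 5306, and for the other 3 genes the conditions overlap.

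Steap3 (ENSMUSG00000026389, chr1:120190757-120272705) reduces the iron that transferrin releases in the endosome. Its TPM ranged from 31.6 to 35.8 in control dishes and from 33.7 to 36.8 in exposed dishes, with a log2 fold change of 0.045 (standard error 0.047, limma adjusted p = 0.707), which was 0.0098 without control replicate 2, the lowest dish. Slc11a2 (ENSMUSG00000023030, chr15:100387898-100425072), the divalent metal transporter that moves the reduced iron into the cytosol, ranged from 27.0 to 31.4 and from 29.0 to 31.8. Its log2 fold change was 0.036 (standard error 0.049, limma adjusted p = 0.783) and was -0.0039 when control replicate 1, the dish with the lowest value, was left out. The tables hold 1 value per gene, so that Slc11a2 transcripts with and without the 3′ part known to carry an iron-responsive element cannot be told apart.

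Slc40a1 (ENSMUSG00000025993, chr1:45908068-45926523) encodes ferroportin, the only known cellular iron exporter. Its TPM was 53.5, 52.1, 53.7 and 53.7 in control dishes and 49.3, 53.6, 54.3 and 52.3 in exposed dishes. The lowest and the highest value both belonged to exposed dishes. Slc40a1 was the 1 gene of the 9 with a negative log2 fold change, -0.025 (standard error 0.035, limma adjusted p = 0.791), and the value was 0.0035 without Opti-ELF-WMF replicate 1.

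For both sensors of cytosolic iron the conditions overlapped. Ireb2 (ENSMUSG00000032293, chr9:54863789-54912530) encodes iron regulatory protein 2, which is degraded when iron is plentiful. Its TPM was 35.5, 36.6, 39.1 and 36.6 in control dishes and 35.9, 36.6, 39.2 and 37.2 in exposed dishes, with a log2 fold change of 0.012 (standard error 0.041, limma adjusted p = 0.918). This value was negative, at -0.017, under median-of-ratios scaling and with mitochondrial genes left out of the total, and leaving out control replicate 1 gave -0.0061 and leaving out Opti-ELF-WMF replicate 3 gave -0.012. Aco1 (ENSMUSG00000028405, chr4:40143081-40198338) encodes iron regulatory protein 1, which becomes a cytosolic aconitase when it holds an iron-sulfur cluster. Its TPM was 55.8, 57.1, 54.0 and 54.3 in control dishes and 55.2, 59.1, 56.4 and 55.9 in exposed dishes, with a log2 fold change of 0.034 (standard error 0.032, limma adjusted p = 0.671), which was 0.014 without Opti-ELF-WMF replicate 2, the highest dish. Aco1 was above Ireb2 in all 8 dishes, with a ratio of Ireb2 to Aco1 of 0.668 ± 0.040 (SD, n = 4) in control and 0.658 ± 0.032 (SD, n = 4) in exposed dishes. Fbxl5, the iron-binding subunit of the ubiquitin ligase that removes iron regulatory proteins, had a TPM of 80.6 to 88.0 in control and 80.3 to 83.4 in exposed dishes.

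**Figure D4:**
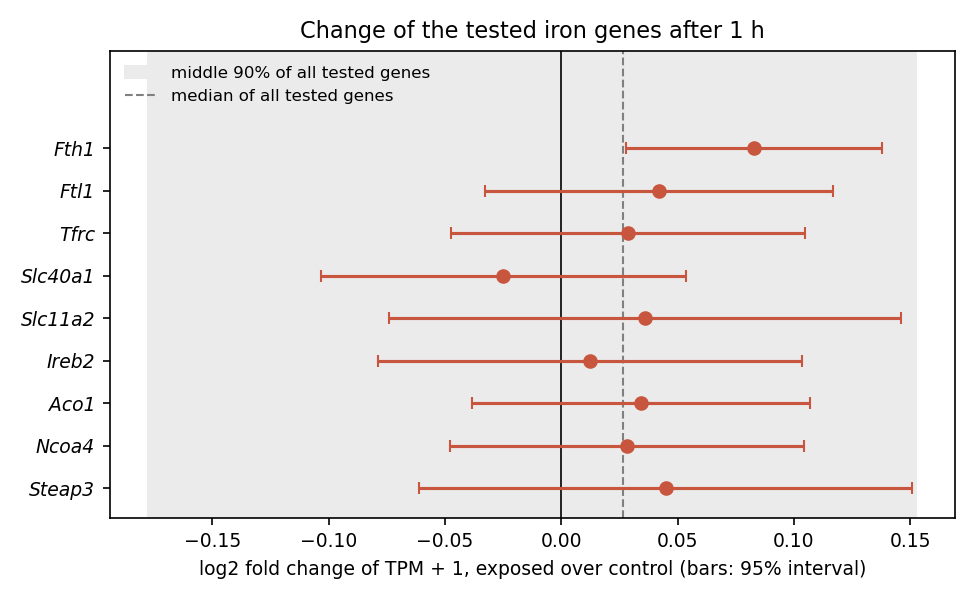
Log2 fold change of TPM + 1, exposed over control, for the 9 tested iron genes (points) with 95% intervals from limma (bars), over the middle 90% of all 12122 tested genes (grey, from -0.18 to 0.15) and their median (dashed, 0.026). The interval of Fth1 lies above 0, and those of the other 8 hold 0.

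The intervals of the 9 genes ran from -0.10 (Slc40a1) to 0.15 (Steap3) on the log2 scale, or from -6.91% to 11.0% of TPM + 1. A p-value above the threshold does not show that a gene was unaltered within these bounds. Ireb2, with the value nearest to 0, still had an interval of -0.079 to 0.10.

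Hamp (ENSMUSG00000050440, chr7:30942368-30944032) encodes hepcidin. It was listed at 0 in every dish, as was its paralog Hamp2, and no fold change is given. Of 21 other genes around hepcidin, 15 were tested. Hjv, Bmp2 and Bmp6, which encode the coreceptor and ligands that drive Hamp transcription in liver, and Tmprss6, the protease that removes the coreceptor, stayed at or below 0.11 TPM. Receptors and transducers of the same pathway were present. Tfr2, the liver sensor of iron-loaded transferrin, had a TPM of 12.5 to 13.6 in control and 11.8 to 13.2 in exposed dishes, and Hfe, its partner, 5.26 to 6.25 and 4.69 to 6.07. Id1, a direct target of BMP signaling, was at 67.7 to 71.5 and 63.3 to 71.5. An unadjusted p-value under 0.05 was found for 4 of the 15, all with higher TPM after exposure, against 12.0% of all tested genes. With median-of-ratios scaling the count was 2, against 5.34%, and with mitochondrial genes left out of the total it was 1, against 5.72%. The count was also 2 without control replicate 1, 2 or 4 and without Opti-ELF-WMF replicate 2 or 4. It was 3 without Opti-ELF-WMF replicate 3, 5 without control replicate 3 and 6 without Opti-ELF-WMF replicate 1. Over the fits that left out 1 dish, the share of all tested genes was 8.79% to 13.4%. With upper-quartile scaling the count stayed at 4, against 8.20%. On deposited TPM the smallest unadjusted p-values belonged to Acvr1, a type I BMP receptor, with 23.2 ± 0.98 (SD, n = 4) in control and 26.2 ± 1.4 (SD, n = 4) in exposed dishes (log2 fold change 0.17, limma adjusted p = 0.154), and to Furin, a protease that processes the hepcidin precursor, with 161 ± 4.6 and 174 ± 9.5 (SD, n = 4 each; log2 fold change 0.11, limma adjusted p = 0.215). For Furin the unadjusted p was 0.0515 with mitochondrial genes left out of the total.

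To place the 10 genes in their pathway, 96 further genes of iron and heme handling were read from the same fit. Of these 74 were tested, limma's adjusted p-value was under 0.05 for 0 of them, and 18 had an unadjusted p-value under 0.05 (24.3%, against 15.6% of all tested genes), 16 with higher and 2 with lower TPM. The number was 11 when mitochondrial genes were left out of the total, with 8 higher and 3 lower, against 11.3% of all tested genes. The median log2 fold change was 0.040. Genes share samples and are not independent, the list was chosen with earlier results of these data known, and the difference from the background was not tested.

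A list made for uptake and transferrin held 20 genes, not all of them specific to iron. Of these 11 were tested and 1 had an unadjusted p-value under 0.05, with higher TPM, against 12.0% of all tested genes. This was Slc39a7, a transporter that releases zinc from the secretory pathway, at 150 ± 7.5 and 166 ± 8.6 TPM (SD, n = 4 each; log2 fold change 0.14, limma adjusted p = 0.186). Trf, which encodes transferrin itself, was at 808 to 857 TPM in control and 809 to 892 in exposed dishes, and Slc39a14, a carrier of iron that is not bound to transferrin, at 38.2 to 44.0 and 37.7 to 44.3. On the same list, Slc30a10, Steap4 and Lrp2 were at 0 in every dish. Of the 4 tested export genes, Cp, the ferroxidase ceruloplasmin that hepatocytes secrete, was at 389 ± 8.4 TPM in control and 366 ± 13.1 in exposed dishes (SD, n = 4 each). Every exposed dish was below every control dish, as for 1.86% of all tested genes. The log2 fold change of Cp was -0.090 (limma adjusted p = 0.195). Flvcr1, a heme and choline transporter, was at 19.5 ± 0.78 and 21.1 ± 0.48 TPM (SD, n = 4 each; log2 fold change 0.11, limma adjusted p = 0.230), with an unadjusted p of 0.0719 under median-of-ratios scaling, 0.0696 with mitochondrial genes left out of the total and 0.0672 without control replicate 1.

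Of 11 tested genes for iron chaperones and ferritin turnover, 5 had an unadjusted p-value under 0.05, all with higher TPM and with no overlap between conditions, against 12.0% and 8.01% of all tested genes. They were Cisd1, Pcbp2, Glrx3, Tax1bp1 and Pcbp1, of which the latter 3 lie outside the naming rule and are named because the count is small. Under each of the 3 other scalings the count was 2, against 8.20% (upper-quartile), 5.34% (median-of-ratios) and 5.72% (mitochondrial genes left out) of all tested genes with higher TPM. It was 3 in the fit without the trend and when either control replicate 3 or Opti-ELF-WMF replicate 3 was left out, against 10.1% to 11.0%. Cisd1, an iron-sulfur protein of the mitochondrial outer membrane, was at 42.9 ± 3.4 TPM in control and 49.96 ± 2.1 in exposed dishes (SD, n = 4 each; log2 fold change 0.22, limma adjusted p = 0.139). Pcbp2 and Pcbp1 are RNA-binding proteins that also deliver iron to ferritin. Pcbp2 was at 655 ± 4.5 and 697 ± 17.5 TPM (SD, n = 4 each; log2 fold change 0.087, limma adjusted p = 0.140).

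Within mitochondrial iron handling all 10 genes were tested, with 4 positive and 6 negative log2 fold changes. Slc25a37, an importer of mitochondrial iron, was at 26.0 to 29.2 TPM in control and 25.5 to 28.2 in exposed dishes. An unadjusted p-value under 0.05 was found for 1 of the 10, with higher TPM, against 12.0% of all tested genes. This was Fdx2, the ferredoxin of iron-sulfur cluster assembly, at 91.2 ± 1.4 and 98.7 ± 2.9 TPM (SD, n = 4 each; log2 fold change 0.11, limma adjusted p = 0.134). Among 10 tested genes of heme synthesis, Alas1, which encodes the first and rate-limiting enzyme in liver, was at 69.4 to 73.3 and 67.7 to 74.8 TPM. Alad, the second enzyme, was at 72.3 ± 1.1 and 78.9 ± 2.0 TPM (SD, n = 4 each; log2 fold change 0.12, limma adjusted p = 0.122). Every exposed dish was above every control dish for Alad, as for 8.01% of all tested genes. Ppox, which acts one step before iron insertion, was at 13.1 ± 0.64 and 11.3 ± 1.3 TPM (SD, n = 4 each; log2 fold change -0.21, limma adjusted p = 0.223), and its unadjusted p was 0.0502, 0.0588 and 0.0574 by limma without control replicate 3, Opti-ELF-WMF replicate 3 and Opti-ELF-WMF replicate 4. In heme breakdown, Hmox1, the inducible heme oxygenase, was at 34.1 to 36.7 and 33.1 to 37.1 TPM, and Hmox2, the constitutive one, at 43.8 ± 2.1 and 48.3 ± 1.7 TPM (SD, n = 4 each; log2 fold change 0.14, limma adjusted p = 0.168).

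**Figure D5:**
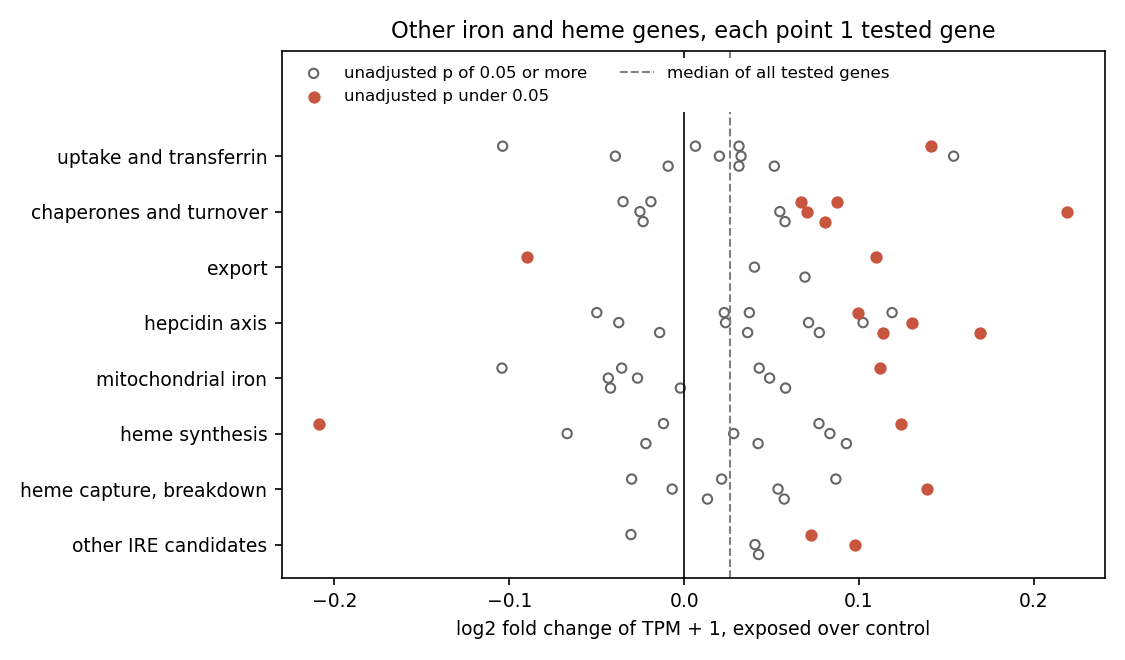
Log2 fold change of TPM + 1 (x axis, exposed over control) of the 74 tested further iron and heme genes, 1 point per gene, by role (y axis), filled where limma's unadjusted p-value was under 0.05. Of the 18 filled points 16 are above 0, and the dashed line marks the median of all tested genes at 0.026.

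A further list held 6 transcripts in which iron-responsive elements have been described in some species, 5 of them tested, of which 2 had an unadjusted p-value under 0.05 with higher TPM, against 12.0% of all tested genes, and 0 with lower TPM, against 3.65%. The count was 1 with median-of-ratios scaling, with mitochondrial genes left out of the total, in the fit without the trend, and when control replicate 1 or 3 or Opti-ELF-WMF replicate 2 or 3 was left out. In these fits the share of all tested genes with higher TPM was 5.34% to 11.0%. Sdhb, a subunit of complex II on this list, was at 121 ± 3.2 and 130 ± 4.2 TPM (SD, n = 4 each; log2 fold change 0.098, limma adjusted p = 0.179). On this list the hairpin search found a 5′ UTR match in 1 of 6 genes and a 3′ UTR match in 0, and Sdhb had none. Of the 3 iron genes shown above with a 5′ hairpin, Fth1 and Ftl1 had positive and Slc40a1 a negative log2 fold change. Across the whole table, 31 genes met the pattern in a 5′ UTR and 129 in a 3′ UTR. Of the 25 tested genes with a 5′ match, 4 had an unadjusted p-value under 0.05 with higher and 0 with lower TPM, and of the 91 with a 3′ match 10 and 0 did, against 12.0% and 3.65% of all tested genes. The median log2 fold changes were 0.027 and 0.031, against 0.026 for all tested genes.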

How the data were processed

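Poly(A) RNA of AML12 cells went into TruSeq Stranded mRNA libraries. Each of 8 dishes has 1 deposited table of TPM, made by the authors. The submitters' processing notes name Trimmomatic 0.39, STAR 2.7.4a, RSEM 1.3.3 and mm10, without further detail, and the annotation release is not given in the sources used here. TPM keeps no sequencing depth, so no counting error is given. The labels and methods do not say whether the samples called dishes were separate dishes or independent cultures. A p-value here sets the difference between conditions against the spread between these dishes, and does not extend to other cultures.

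Genes with TPM of at least 1 in at least 4 dishes (12122) were tested on log2(TPM + 1) by limma 3.58.1 (lmFit, eBayes with a trend) in R 4.3.3, adjusted by Benjamini-Hochberg. The design allowed for counts, and the values were TPM. The pipeline was tested on simulated data. Positions and UTRs came from GENCODE M21, which matched 55141 of the identifiers. Ferritin copies were transcripts at least 90% identical over at least 50% of their length (BLAST 2.17.0). Named genes are the 10 iron genes and, per list, up to 2 per direction with the smallest unadjusted p under 0.05, and genes given as absent. Trf, Slc39a14, Fbxl5, Tfr2, Hfe, Id1, Slc25a37, Alas1 and Hmox1 were added for their roles, and Pcbp1, Glrx3 and Tax1bp1 to complete a small count, after their values were seen. Alternatives changed the pseudocount, filter, scaling, trend, block and dishes, 1 at a time. Some genes are not reported here. The genes and lists were chosen with earlier results of these data known. Sequencing depth, isoforms and proteins were not analysed here.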

Additional observations from a re-analysis of the deposited data

Results flagged for a closer look

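In 1 of 52 groups of 4 dishes examined by Dixon's criterion, 1 dish stood apart from the others, where chance gives about 2.6. This was Slc40a1 in control replicate 2, with a TPM of 52.1 against 53.5 to 53.7 in the other control dishes. The value lies within the range of the exposed dishes.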

How the results depend on the processing

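Unless named here, the 9 tested iron genes kept the direction of their log2 fold change, and 0 of them had an adjusted p-value under 0.05 in any alternative run. Without the filter on low values, with upper-quartile and with median-of-ratios scaling, 0 of the 9 in place of 1 had an unadjusted p-value under 0.05. In the same order the share of all tested genes was 10.09%, 12.96% and 11.65%, in place of 15.6%. With median-of-ratios scaling the log2 fold changes of Tfrc (-0.0016), Ireb2 (-0.017) and Ncoa4 (-0.0021) were negative, and with mitochondrial genes left out of the total they were -0.00094, -0.017 and -0.0014. In the same order these scalings took the median of all tested genes from 0.026 to -0.0023 and -0.0015. Over the fits that left out 1 dish each, Slc40a1 ran from -0.042 to 0.0035, Slc11a2 from -0.0039 to 0.065, Ireb2 from -0.012 to 0.039, Ncoa4 from 0.0016 to 0.054, Tfrc from 0.0081 to 0.051, Steap3 from 0.0098 to 0.068, Aco1 from 0.014 to 0.049, Ftl1 from 0.022 to 0.059 and Fth1 from 0.071 to 0.095. Of the 74 further iron genes 18 had an unadjusted p-value under 0.05, 11 with mitochondrial genes left out of the total, and 13 to 21 with 1 dish left out. In the same order the share of all tested genes was 15.6%, 11.3% and 12.3% to 16.2%. Across all genes, 2 had an adjusted p-value under 0.05 with pseudocount 5, 1 each with TPM of at least 1 in every sample, with upper-quartile and median-of-ratios scaling and without the trend, and 0 to 2 with 1 dish left out (2 without control replicate 2, 1 without control replicate 3). The share of genes with higher TPM among those at an unadjusted p-value under 0.05 was 76.6% on deposited TPM, 63.3% with upper-quartile scaling, 45.8% with median-of-ratios scaling and 50.7% with mitochondrial genes left out. The cause was not tested. Same-numbered dishes did not deviate together (correlations of -0.042 to 0.026, and 0 of 8 dishes correlated best with their own number). With the replicate number as a block, Fth1 stayed at 0.083 (limma adjusted p = 0.218, within 0.157 to 0.545 over all alternatives), and 0 genes had an adjusted p-value under 0.05. Adding ferritin copies found by sequence, chosen after the data were examined, left Fth1 at 0.083. Unknown depth limits what can be said of Hamp and other genes at 0.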
